A study of Mus musculus with 20 samples.

Results

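The genes described here are the nuclear-encoded subunits of oxidative phosphorylation in colorectal tumors and adjacent non-tumor tissue of ApcMin/+ mice with and without conditional loss of Erbb2. They were chosen by symbol: a row of the gene count files is a member if its symbol begins with Ndufa, Ndufb, Ndufc, Ndufs or Ndufv and a digit, with Uqcr, with Cox and a digit from 4 to 8, or with Atp5, or if it is Sdha, Sdhb, Sdhc or Sdhd, and symbols with "-ps" (7 pseudogene rows) were left out. This gave 90 of 46329 rows, of which 42 belong to complex I, 4 to complex II, 8 to complex III, 19 to complex IV and 17 to complex V. Ndufa4 and Ndufa4l2 stand under complex I by symbol, although Ndufa4 is known as a subunit of complex IV. No measured value entered this choice.

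The study asked what ERBB2, a receptor tyrosine kinase, does in intestinal tumors that form in ApcMin/+ mice, which carry 1 truncated copy of the tumor suppressor Apc. RNA sequencing covered 20 libraries in 4 groups of 5. Control mice were ApcMin/+, Erbb2f/f littermates without Cre, and gave colorectal tumors (control tumors) and adjacent non-tumor tissue (control adjacent). Erbb2-deficient mice were ApcMin/+, Erbb2f/f and carried Tg(Vil1-cre), and gave the same tissues (deficient tumors, deficient adjacent). All 4 groups thus share the ApcMin and the floxed Erbb2 alleles (Erbb2tm1Mll), the C57BL/6J strain and an age of 100 days. The villin promoter drives Cre in intestinal epithelial cells, so other cells of a sample keep Erbb2, and the Cre transgene itself is present in the deficient mice only. The labels call the libraries biological replicates and do not state whether every library had a mouse of its own. The p-values thus reflect only how far these libraries vary.

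Oxidative phosphorylation is the final stage of respiration in the inner mitochondrial membrane. Complex I (NADH dehydrogenase) and complex II (succinate dehydrogenase) pass electrons to ubiquinone, complex III (cytochrome bc1) passes them to cytochrome c, complex IV (cytochrome c oxidase) passes them to oxygen, and complex V (ATP synthase) makes ATP from the proton gradient that complexes I, III and IV build. Differentiated colonocytes are known to rely on this pathway to burn butyrate, while proliferating tumor cells often draw more on glycolysis.

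What the rows hold limits everything below. The labels name a stranded kit, and the counts lie mostly on the strand opposite to the named gene: only 2.51% to 3.45% of reads fell on genes and 78.6% to 85.1% on no feature. Mitochondrial ND6, which is transcribed from the other strand than its neighbours, had 22599 to 199495 counts in a library, while the row of the housekeeping gene Gapdh had 0 to 12. A member row is therefore taken to count mainly reads antisense to that gene. These can come from an overlapping or neighbouring gene, but the source of the counts in each row was not tested. The value of such a row should not be read as the level of the subunit's mRNA. Gene counts per library ran from 1071737 to 1944309 (median 1258396). The Erbb2 row had 1 to 22 counts and did not differ between genotypes in adjacent tissue (adjusted p = 0.927) or tumors (adjusted p = 0.994), and under this counting it does not check the deletion.

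The member rows were sparse. Together they held 478 to 1622 counts in a library (median 826.5), which is 0.0401% to 0.0894% of the gene counts, and 66 to 80 members had at least 1 count. The median member averaged 5.2 counts per library, 27 members averaged at least 10, and Ndufv3 had the highest mean, at 87.6. Cox7b2 and Cox8c, which encode tissue-restricted isoforms of complex IV subunits known from testis, were at 0 in every library. By the GENCODE annotation, 25 members (29.1% of the 86 matched) have an exon of another gene opposite their own exons, against 19.3% of all matched rows. Another 26 have an opposite-strand gene within 1000 bases and 35 have neither. These 3 classes held 39.8%, 39.7% and 20.5% of the counts of matched members, against 77.2%, 13.4% and 9.39% over all matched rows. With the distance set to 5000 bases, 37 members have an opposite-strand neighbour and 24 have neither. Rows of genes with similar sequence, such as Atp5g1, Atp5g2 and Atp5g3, Ndufb4, Ndufb4b and Ndufb4c, or Cox6c and Cox6c2, may share reads and are uncertain.

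Many respiratory chain genes are known targets of the transcription factors NRF1 and GABPA, so the 250 bases upstream of each RefSeq start (GRCm38.p6) were searched on both strands for an NRF1 site (GCGCA, then any 1 base, then GCGC) and CCGGAAG (the ETS-type site of GABPA). The members matched 70 genes with 75 windows. The NRF1 letters occurred in 14 of these windows (18.7%), against 1228 of all 32851 windows (3.74%), and the GABPA letters in 12 (16%), against 2269 (6.91%). A match describes these letters only. The windows of 2 members whose rows were lower in tumors are printed because they show both cases, one with no match and one with the NRF1 match in capitals. Uqcr10 lies at chr11:4704345-4704594 on the minus strand and is given whole. Atp5h is given from position -208 to -44 relative to the start, at chr11:115419963-115420127 on the minus strand, and its match begins at -141.
Uqcr10: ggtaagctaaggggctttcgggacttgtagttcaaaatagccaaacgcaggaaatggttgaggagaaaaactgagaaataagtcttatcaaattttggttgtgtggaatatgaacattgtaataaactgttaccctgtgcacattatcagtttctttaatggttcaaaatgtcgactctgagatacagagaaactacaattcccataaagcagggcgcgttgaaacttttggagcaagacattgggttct
Atp5h: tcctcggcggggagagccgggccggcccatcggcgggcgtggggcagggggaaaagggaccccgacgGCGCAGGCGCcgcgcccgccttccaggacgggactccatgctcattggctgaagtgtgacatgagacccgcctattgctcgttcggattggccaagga
The window of Atp5h also held the GABPA letters, and that of Atp5k the NRF1 letters, both outside the printed bases. Windows of Cox5b and Ndufa6, whose rows are described below, held neither.

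Tumor libraries tended to have fewer counts on these rows than adjacent tissue, but few rows differed beyond the spread between libraries. Of the 90 members, 33 passed the filter on low counts (12 of complex I, 1 of II, 3 of III, 7 of IV and 10 of V), and the other 57 averaged at most 7.45 counts. In control mice, no tested row rose in tumors and 1 fell (Uqcr10), against 21.6% of all 7119 tested rows called (10.7% higher, 10.9% lower; edgeR quasi-likelihood test, adjusted p under 0.05). In Erbb2-deficient mice 1 rose and 5 fell (Ndufa6, Uqcr10, Cox5b, Atp5h and Atp5k), against 27.5% of all rows (13.0% higher, 14.5% lower). The share of members called was below the background in both genotypes, but that background was not matched for counts. Tested members averaged 6.9 to 87.6 counts per library, and a row with few counts is harder to call. The log2 fold change was negative for 29 of the 33 rows in control mice, with a median of -0.42 (0.07 over all rows), and for 30 in deficient mice, with a median of -0.65 (-0.06 over all rows). Without the filter, the 88 members with a count had medians of -0.36 and -0.53, against 0 and 0 over all 27672 rows. Most of those 27672 rows were too low for the filter, so their median of 0 is not a background matched for counts. In bulk tissue, fewer cells of a type and less RNA per cell cannot be told apart.

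**Figure D1:**
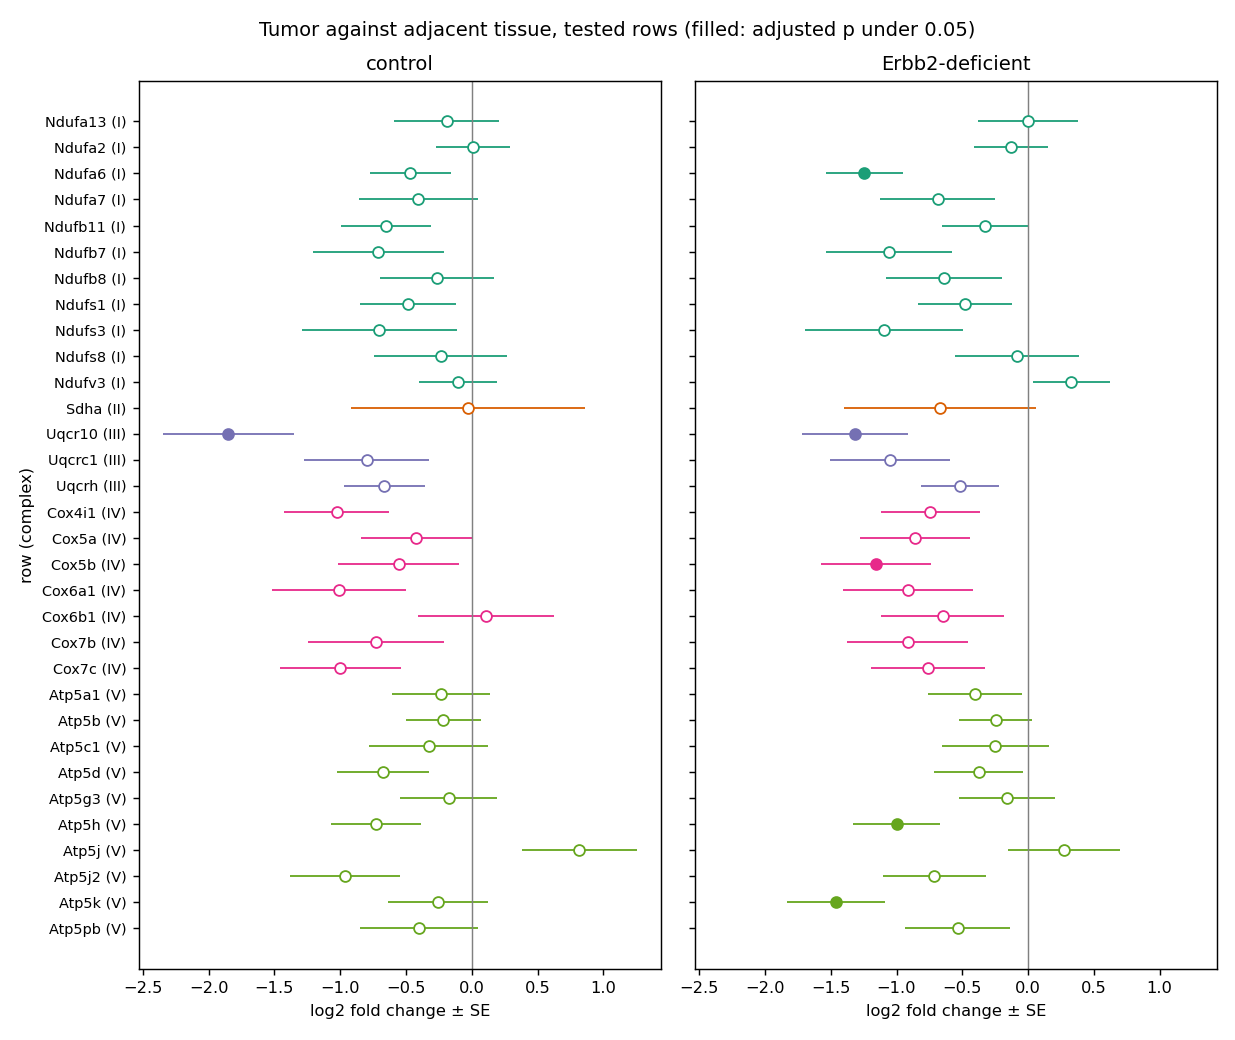
Log2 fold change ± SE of tumor against adjacent tissue for 32 of the 33 tested rows, colored by complex, in control (left) and Erbb2-deficient mice (right); filled points had an adjusted p under 0.05. Most points lie left of 0, and 1 row on the left and 5 on the right are filled.

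Cell type markers moved strongly with tissue, and the adjacent samples, which the labels call epithelium, also carried smooth muscle markers. All 10 rows of smooth muscle markers fell in tumors of both genotypes, and their summed level was 1151 to 2589 CPM (counts scaled to library size, normalized by TMM) in control adjacent libraries against 162 to 532 in control tumors, and 1152 to 1459 against 161 to 262 in deficient mice. Of 5 tested rows of absorptive colonocyte markers, 4 fell in both (128.5 to 201 against 1.82 to 122 CPM in control mice, 162 to 417 against 8.38 to 52.1 in deficient mice). Of 6 goblet rows 3 fell in control and 5 in deficient mice (183 to 756 against 0 to 567.5 CPM, and 454 to 858 against 20.9 to 309). None of the 6 general epithelial rows was called (239 to 351, 14.5 to 428, 239 to 577 and 307 to 595 CPM in control adjacent, control tumor, deficient adjacent and deficient tumor libraries). No fibroblast row was called in control mice, and 3 of 5 rose in deficient tumors, where the summed level was 68.4 to 201 CPM against 15.9 to 69.1 in deficient adjacent tissue. Of 5 tested B cell and MHC class II rows 0 were called in control mice and 1 rose and 1 fell in deficient mice, and 0 of 6 skeletal and cardiac muscle rows passed the filter. No marker listed was at 0 in every library, these rows are counted on the same strand as the members, and their part in the results below was not tested. Control tumor 3 stood apart, with the highest colonocyte (122), goblet (567.5) and smooth muscle (532) sums of its group, and control tumor 2 had the lowest epithelial sum (14.5) a goblet sum of 0 and the highest B cell and MHC class II sum (1166.5, against a group median of 592).

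Among complex I rows, Ndufa6 fell in deficient tumors and did not pass the test in control mice. Ndufa6 encodes an accessory subunit. Its row has no annotated opposite-strand gene over its exons or within 1000 bases, but has such a gene within 5000 bases. In libraries 1 to 5 it had 30, 19, 30, 20 and 26 counts in deficient adjacent tissue and 9, 8, 9, 16 and 9 in deficient tumors. All 5 deficient tumors lay below all 5 adjacent libraries on the CPM scale, and the log2 fold change was -1.24 ± 0.29 (SE; adjusted p = 0.00356, and 0.0646 without the filter). In control mice Ndufa6 had 9, 13, 19, 8 and 9 counts in adjacent tissue and 11, 9, 11, 5 and 6 in tumors. Those groups overlapped, at 9.90 ± 2.94 and 7.16 ± 2.24 CPM (SD, n = 5), with a log2 fold change of -0.47 ± 0.31 (adjusted p = 0.292).

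Ndufv3 and Ndufa2, 2 of the complex I rows with the highest mean CPM, gave no call. Ndufv3, a flavoprotein-arm subunit with Wdr4 and Gm38099 as opposite-strand neighbours, had 60.8 ± 22.7 CPM in control adjacent tissue, 56.3 ± 28.2 in control tumors, 68.0 ± 7.42 in deficient adjacent tissue and 85.5 ± 16.1 in deficient tumors. Ndufa2, an accessory subunit whose row overlaps 66 bases of Tmco6, had 34.8 ± 8.19, 35.0 ± 6.95, 28.2 ± 11.7 and 25.9 ± 5.54 CPM in the same order. The groups of each row overlapped, with log2 fold changes in tumors between -0.13 and 0.33. Ndufs3, a core subunit of the peripheral arm, was chosen after its values were seen. It had 27, 23, 20, 12 and 34 counts in control adjacent tissue and 2, 4, 49, 5 and 10 in control tumors, where the 49 counts were those of control tumor 3. Its log2 fold change in control mice was -0.70 ± 0.59 (adjusted p = 0.423), and -2.14 ± 0.45 (adjusted p = 0.00143) without that library. In deficient mice Ndufs3 had 32, 31, 22, 23 and 14 counts in adjacent tissue and 8, 10, 9, 14 and 15 in tumors (-1.10 ± 0.60, adjusted p = 0.180), and it passed the test there with only the groups compared (adjusted p = 0.0155), without control tumor 3 (0.0459) and without control tumors 2 and 3 (0.0335).

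Over the 12 tested complex I rows the median log2 fold change was -0.34 in control and -0.40 in deficient mice. An exon of Kbtbd4 lies opposite Ndufs3, over 88 bases.

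Complex II was near the detection limit. Sdha, the flavoprotein that oxidises succinate and the complex II row that passed the filter, had 1, 5, 10, 0 and 0 counts in control adjacent libraries, 0, 1, 10, 2 and 2 in control tumors, 8, 8, 27, 10 and 13 in deficient adjacent tissue and 7, 11, 2, 17 and 4 in deficient tumors. It did not pass the test in tumors of either genotype (log2 fold change -0.03 ± 0.89, adjusted p = 0.984 in control mice, and -0.67 ± 0.73, adjusted p = 0.525 in deficient mice). Sdhb, the iron-sulfur subunit, averaged 6.39 ± 3.81, 5.89 ± 4.05, 6.42 ± 1.94 and 4.99 ± 0.666 CPM in control adjacent, control tumor, deficient adjacent and deficient tumor libraries. Sdhc, a membrane anchor, averaged 2.86 ± 1.71, 1.57 ± 0.992, 2.11 ± 1.89 and 1.93 ± 1.25 CPM.

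Sdhd, the other membrane anchor, had 0, 2, 0, 0 and 2 counts in control adjacent tissue, 0, 0, 1, 1 and 1 in control tumors, 6, 5, 6, 5 and 9 in deficient adjacent tissue and 0, 2, 2, 7 and 5 in deficient tumors. All 5 deficient adjacent libraries (3.49 to 5.95 CPM) lay above all 10 control libraries (0 to 1.78 CPM). Sdhd was too low for the filter, and in the fit without it the genotype difference in adjacent tissue had an adjusted p of 0.776.

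In complex III, Uqcr10 was the member called in both genotypes. It encodes a small subunit of cytochrome bc1, and Zmat5 lies on the opposite strand next to it. Control adjacent tissue had 10, 9, 9, 9 and 6 counts and control tumors had 5, 1, 3, 0 and 3. The groups did not overlap (5.34 to 9.87 against 0 to 3.49 CPM), and the log2 fold change was -1.85 ± 0.50 (adjusted p = 0.0114). Deficient adjacent tissue had 46, 23, 14, 11 and 25 counts and deficient tumors 6, 10, 15, 6 and 8, with a log2 fold change of -1.32 ± 0.40 (adjusted p = 0.0186). Here tumor 3 (10.5 CPM) lay above the lowest adjacent library (8.32 CPM). The deficient call was lost without deficient tumor 1, deficient tumor 4 or deficient adjacent 1 (adjusted p 0.0548 to 0.0720) and without the filter (0.0631). The control call held without each library in turn and without the filter (adjusted p = 0.0277). However, the Uqcr10 row passed the filter through deficient adjacent tissue, where it was highest. With only the control groups fitted it did not pass and was not tested.

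Uqcrh, the hinge subunit that docks cytochrome c1, had 26, 24, 23, 20 and 13 counts in control adjacent libraries, 23, 13, 16, 11 and 6 in control tumors, 44, 28, 27, 32 and 35 in deficient adjacent tissue and 24, 16, 14, 28 and 30 in deficient tumors. Its log2 fold changes were -0.67 ± 0.31 in control (adjusted p = 0.128) and -0.51 ± 0.30 in deficient mice (adjusted p = 0.204), and the groups overlapped. Uqcrc1, a core subunit, gave -0.80 ± 0.48 (adjusted p = 0.241) and -1.05 ± 0.46 (adjusted p = 0.0925), from 15.3 ± 9.22 to 8.77 ± 4.61 CPM and from 20.5 ± 5.83 to 9.89 ± 4.37 CPM. All 3 tested complex III rows had a negative log2 fold change in both genotypes.

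In complex IV, Cox5b was called, in deficient mice. It encodes a structural subunit of cytochrome c oxidase. The Cox5b row has no annotated opposite-strand gene over its exons or within 1000 bases, but has such a gene within 5000 bases. Deficient adjacent tissue had 22, 22, 16, 13 and 14 counts and deficient tumors 5, 8, 5, 8 and 12. The groups did not overlap in CPM (12.6 ± 3.58 against 5.57 ± 2.08), with a log2 fold change of -1.16 ± 0.42 (adjusted p = 0.0433). The Cox5b row passed the filter through deficient adjacent tissue, the group where it was highest and the one this call is set against. This call was lost in 14 of 26 alternatives (adjusted p 0.0511 to 0.142), among them no filter (0.142) and a replicate block. The others were 12 that left out 1 library: deficient tumors 1, 2, 3 and 4, deficient adjacent 1, 2, 3 and 5, control tumors 1 and 4, and control adjacent 3 and 5. Control libraries had 11, 4, 12, 4 and 7 counts in adjacent tissue and 6, 5, 10, 4 and 1 in tumors, a log2 fold change of -0.55 ± 0.46 (adjusted p = 0.416).

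Cox4i1, the regulatory subunit of cytochrome oxidase, had 33, 26, 26, 20 and 19 counts in control adjacent tissue and 17, 6, 20, 14 and 5 in control tumors. The log2 fold change of -1.03 ± 0.40 missed the threshold (adjusted p = 0.0695) and passed it with DESeq2 (adjusted p = 0.0403), with a replicate block (-1.13 ± 0.35, adjusted p = 0.0401), without control tumor 3 (-1.30 ± 0.41, adjusted p = 0.0226) and without control tumors 2 and 3 (-1.15 ± 0.43, adjusted p = 0.0464). In deficient mice it had 69, 37, 31, 46 and 26 counts in adjacent tissue and 29, 30, 10, 33 and 17 in tumors (-0.74 ± 0.38, adjusted p = 0.146). Cox6a1, another regulatory subunit, had 26, 27, 22, 18 and 17 counts against 18, 5, 27, 5 and 1 in control mice. The 27 counts were those of control tumor 3, and without that library the log2 fold change went from -1.01 ± 0.51 (adjusted p = 0.163) to -1.70 ± 0.48 (adjusted p = 0.0125). Cox7b, a small subunit, averaged 7.95 ± 1.97 and 4.78 ± 3.50 CPM in control adjacent tissue and tumors, and 15.9 ± 7.69 and 8.44 ± 4.61 CPM in deficient ones, without a call. Of the 7 tested complex IV rows, 6 were negative in control and 7 in deficient mice (medians -0.73 and -0.86).

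In complex V, Atp5h and Atp5k fell in deficient tumors. Atp5h, a subunit of the peripheral stalk with Kctd2 as its opposite-strand neighbour, had 39, 32, 13, 19 and 37 counts in deficient adjacent tissue and 12, 7, 11, 18 and 19 in deficient tumors. The groups overlapped, and the log2 fold change was -1.0 ± 0.33 (adjusted p = 0.0285). In control mice it had 17, 24, 15, 11 and 17 counts against 15, 13, 7, 7 and 10 (-0.73 ± 0.34, adjusted p = 0.131). Leaving out any 1 of 6 deficient libraries (tumors 1, 2 and 3, adjacent 1, 2 and 5) ended the call in deficient mice (adjusted p 0.0677 to 0.0931), as did leaving out the filter (0.140).

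Atp5k encodes the e subunit, at the dimer interface of ATP synthase, and has Pde6b as opposite-strand neighbour. Its counts were 41, 14, 19, 15 and 17 in deficient adjacent tissue and 6, 9, 4, 10 and 7 in deficient tumors, without overlap in CPM (14.6 ± 5.40 against 5.31 ± 1.84). The log2 fold change of -1.46 ± 0.37 (adjusted p = 0.00613) held under all 26 alternatives. Control libraries had 13, 4, 11, 12 and 12 counts in adjacent tissue and 14, 8, 10, 9 and 4 in tumors (-0.26 ± 0.38, adjusted p = 0.670). The difference between the genotypes' tissue effects was -1.20 ± 0.53 and did not pass the test (adjusted p = 0.99998).

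The 3 highest complex V rows gave no call. Atp5j, the coupling factor subunit of the stalk, had 10, 61, 40, 34 and 27 counts in control adjacent tissue and 37, 45, 87, 50 and 77 in control tumors, and 23, 40, 116, 101 and 59 against 70, 64, 113, 79 and 94 in deficient mice. Its log2 fold changes were positive, at 0.82 ± 0.44 (adjusted p = 0.192) and 0.27 ± 0.43 (adjusted p = 0.670), and the groups overlapped. Atp5b, the catalytic beta subunit, averaged 36.0 ± 12.8 and 30.9 ± 6.92 CPM in control adjacent tissue and tumors, and 52.5 ± 15.6 and 44.3 ± 13.7 CPM in deficient ones. Atp5d, the delta subunit of the central stalk, averaged 24.3 ± 9.53, 15.1 ± 6.60, 26.0 ± 7.22 and 20.1 ± 6.07 CPM in the same order. Over the 10 tested rows the median log2 fold change was -0.29 in control and -0.39 in deficient mice.

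**Figure D2:**
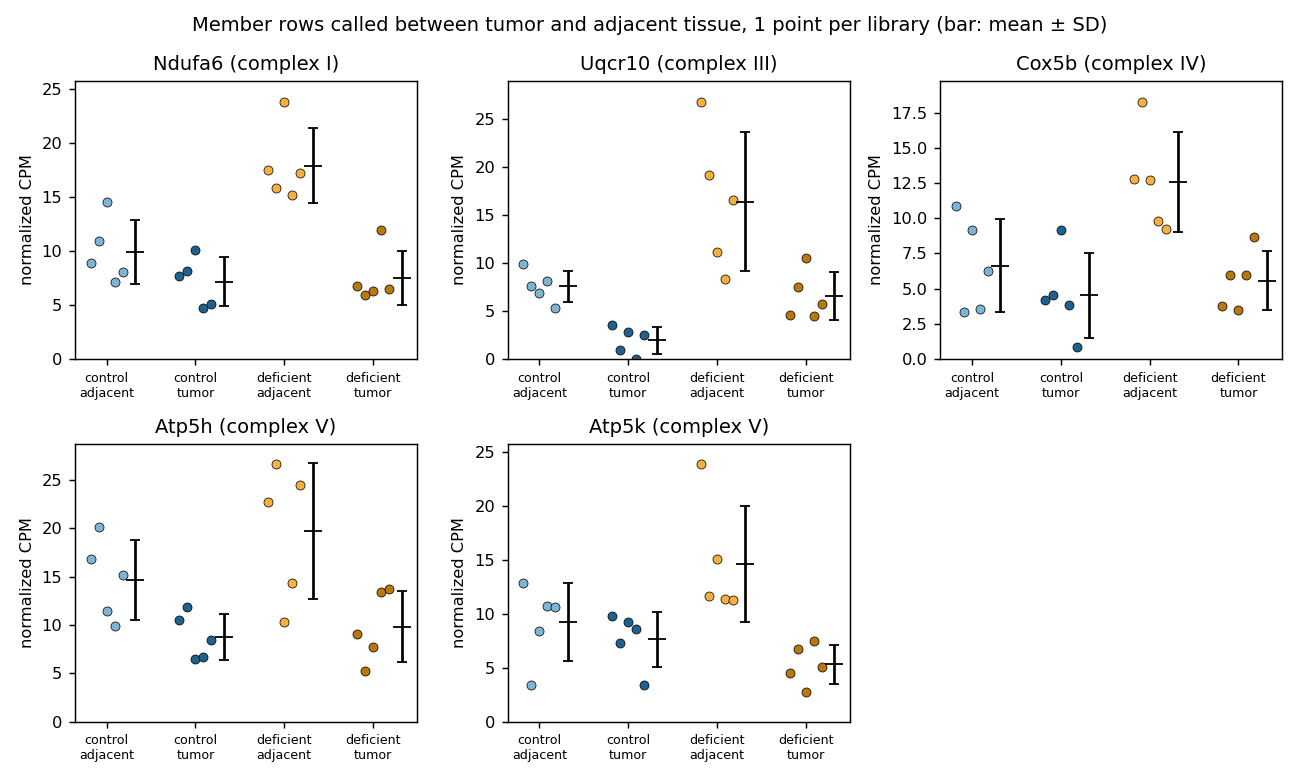
Normalized CPM of 5 called rows in every library, 1 point per library, with the mean ± SD of each group of 5. Tumor and adjacent points do not overlap for Uqcr10 in control mice or for Ndufa6, Cox5b and Atp5k in Erbb2-deficient mice.

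Summed over all members of a complex, which needs no filter, complexes III and IV had the lowest tumor to adjacent ratios. Complex III summed to 55.3 ± 15.3 CPM in control adjacent tissue and 34.6 ± 13.8 in control tumors (ratio 0.625), and to 86.1 ± 18.1 and 48.0 ± 10.4 in deficient mice (0.557). Complex IV summed to 99.5 ± 17.7 and 59.7 ± 33.7 CPM in control mice (0.600), and to 136.5 ± 20.9 and 75.9 ± 24.9 in deficient mice (0.556). For both complexes the deficient tumors lay below all deficient adjacent libraries (34.9 to 61.03 against 65.8 to 112 CPM for complex III, 35.6 to 96.8 against 107 to 164 for complex IV), while control groups overlapped. Control tumor 3 was the highest control tumor for both (56.1 and 112 CPM).

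The other complexes differed less between the tissues. The complex I sums were 278 ± 53.3 and 248 ± 40.2 CPM in control adjacent tissue and tumors and 316 ± 52.9 and 309 ± 35.4 in deficient ones (ratios 0.893 and 0.978). Complex V had 191 ± 28.3, 175 ± 35.6, 267 ± 42.7 and 213 ± 27.3 CPM in the same order (0.915 and 0.799), and complex II 12.5 ± 5.05, 10.7 ± 8.45, 22.7 ± 9.65 and 15.3 ± 6.80 (0.859 and 0.675). Complex II in control tumor 3 stood at 25.8 CPM, and without that library the control tumors had 6.996 ± 1.20 CPM and a ratio of 0.559. Tumor and adjacent libraries overlapped for these 3 complexes in both genotypes. When the 25 members with an exon opposite were left out, the ratios for complexes III and IV were 0.610 and 0.641 in control and 0.550 and 0.551 in deficient mice. Leaving out members with an opposite-strand gene within 1000 bases as well kept 2 rows of complex III and 12 of complex IV. Complex III then had ratios of 1.06 in control and 0.727 in deficient mice, from group means of only 4.26 to 8.12 CPM. Complex IV had 0.707 and 0.559. The low control ratio of complex III was thus not seen in its 2 remaining rows. These sums are descriptions and were not tested.

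**Figure D3:**
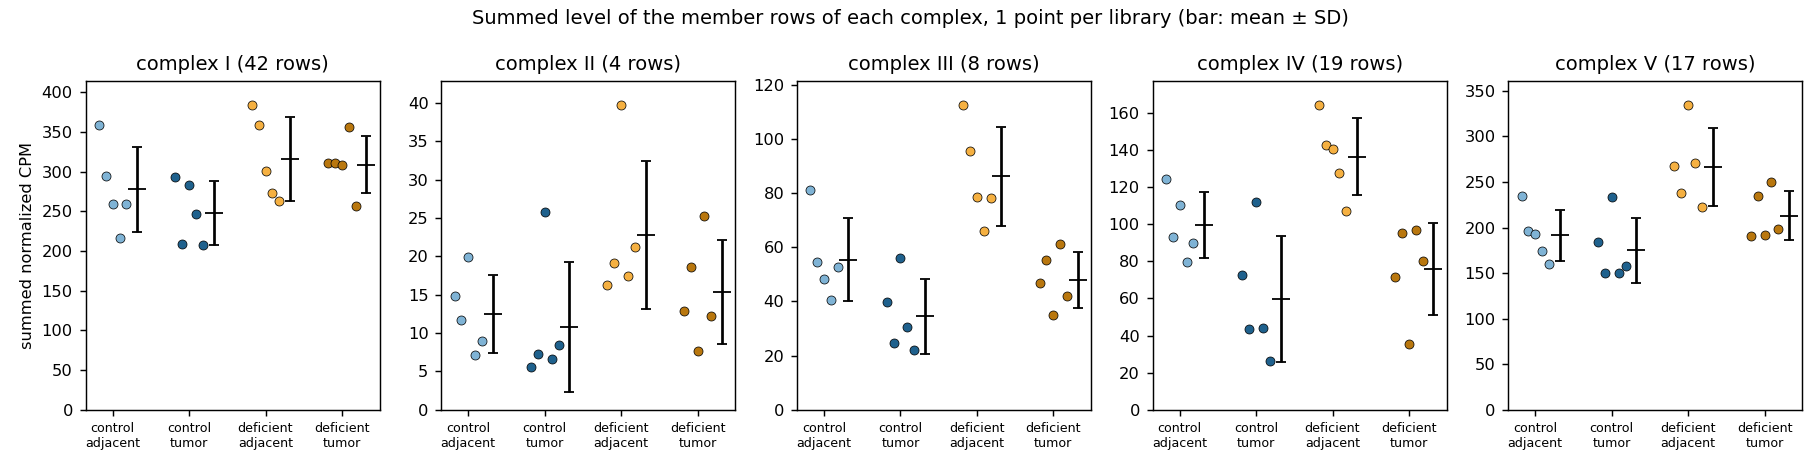
Summed normalized CPM of all members of each complex in every library, 1 point per library, with the mean ± SD of each group of 5. In Erbb2-deficient mice every tumor lies below every adjacent library for complexes III and IV, and the deficient adjacent group has the highest mean for each complex.

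Between genotypes no member passed the test. In adjacent tissue 0 of the 33 rows were called, as were 0.0% of all 7119 rows, and 5 members (418 of all rows) had an unadjusted p under 0.05. In tumors 0 were called, against 0.0% of all rows, and 2 members (817 of all rows) had an unadjusted p under 0.05. DESeq2 also called 0 members in both tissues and for the interaction described below. The point estimates leaned to higher levels in deficient mice, with 28 of 33 positive in adjacent tissue (median 0.34, 0.01 over all rows) and 25 of 33 in tumors (median 0.29, -0.01 over all rows).

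The labels used here give no sex. Tsix lies opposite Xist, the RNA of the inactive X chromosome in females, and its row was high in different numbers of libraries of the genotypes. Tsix had 99, 1363, 2038, 1 and 0 counts in control adjacent tissue and 156, 517, 1310, 0 and 0 in control tumors, against 0, 0, 1, 2 and 1487 in deficient adjacent tissue and 1, 0, 0, 0 and 1546 in deficient tumors. It was thus high in control replicates 1 to 3 and in deficient replicate 5, and its part in the genotype values of the members was not tested.

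The smallest adjusted p-values were those of Uqcr10 in tumors and Ndufa6 in adjacent tissue. Uqcr10 had 7.54 ± 1.66 CPM in control and 16.4 ± 7.21 in deficient adjacent tissue (log2 fold change 1.12 ± 0.40, adjusted p = 0.693), and 1.94 ± 1.44 against 6.54 ± 2.51 in tumors (1.66 ± 0.50, adjusted p = 0.201). In tumors its deficient range of 4.47 to 10.5 CPM lay above the control range of 0 to 3.49. Ndufa6 had 9.90 ± 2.94 and 17.9 ± 3.46 CPM in control and deficient adjacent tissue, without overlap (0.84 ± 0.29, adjusted p = 0.640), and 7.16 ± 2.24 and 7.49 ± 2.49 in tumors (0.06 ± 0.31, adjusted p = 0.969). Sdha had the largest estimate in adjacent tissue, 1.81 ± 0.81, with overlapping groups (2.57 ± 3.32 and 9.78 ± 6.67 CPM, adjusted p = 0.822).

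Summed levels of deficient over control mice were 1.14, 1.82, 1.56, 1.37 and 1.39 for complexes I to V in adjacent tissue, and 1.25, 1.43, 1.39, 1.27 and 1.22 in tumors. Without control tumor 3 the tumor ratios were 1.29, 2.19, 1.64, 1.63 and 1.33, so that of complex II moved by over 1.5 times. Over all 90 members the sums were 518 to 814 CPM in control adjacent, 693 to 944 in deficient adjacent, 422 to 711 in control tumor and 578 to 790 in deficient tumor libraries, so the genotypes overlapped in both tissues. The interaction of genotype and tissue, which asks whether the tumor difference depends on Erbb2, gave 0 calls among members and 0.0% among all rows. Of the 33 rows, 15 were positive and 18 negative (median -0.13, -0.06 over all rows), and 1 member (290 of all rows) had an unadjusted p under 0.05. The tumor calls made in one genotype only are thus not shown to differ between genotypes.

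**Figure D4:**
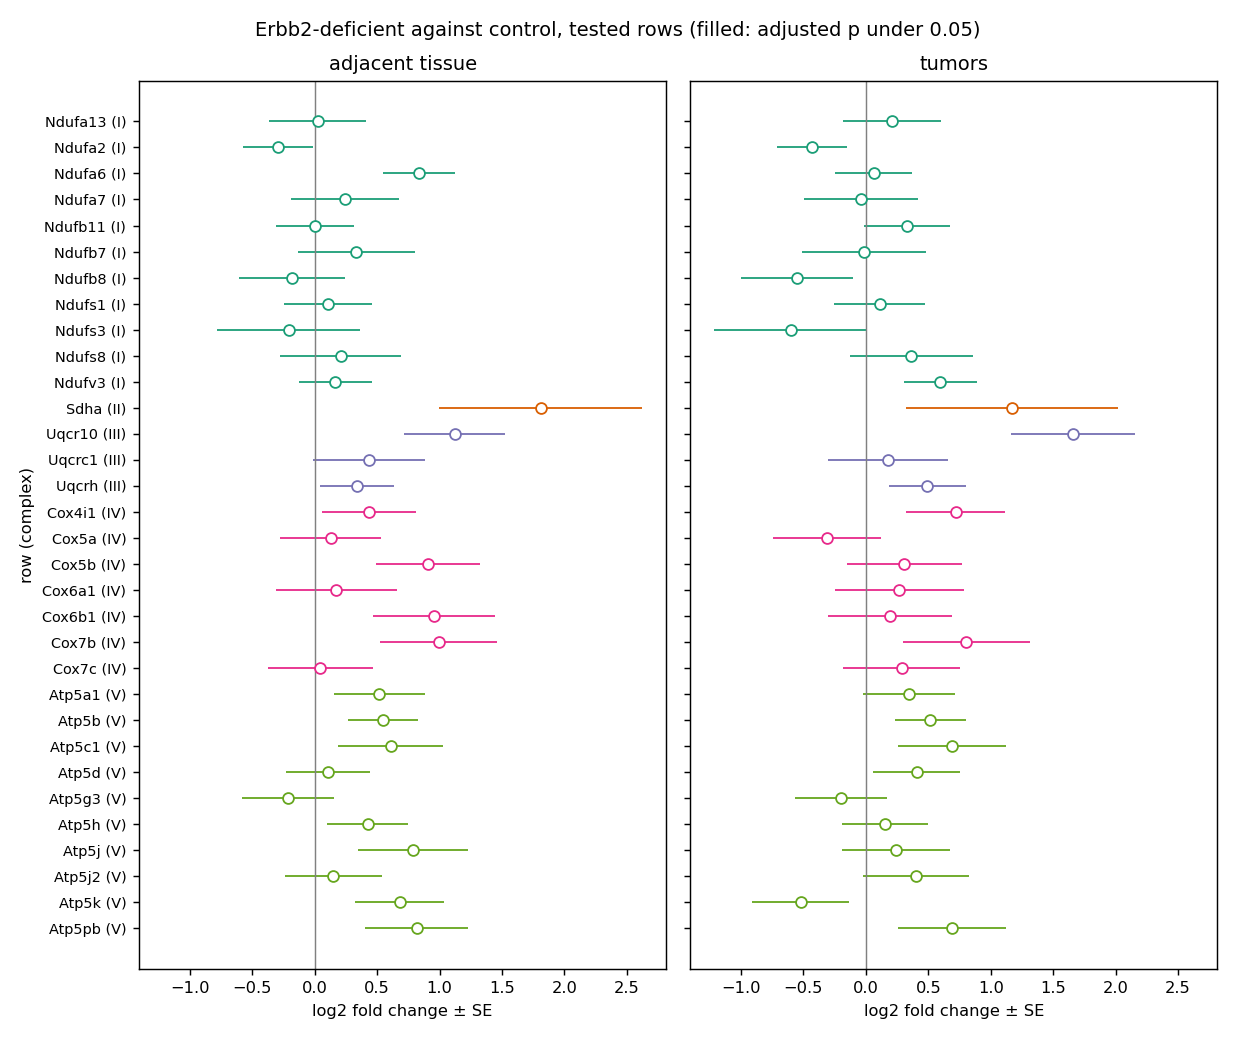
Log2 fold change ± SE of Erbb2-deficient against control mice for 32 of the 33 tested rows, colored by complex, in adjacent tissue (left) and tumors (right); a filled point would mark an adjusted p under 0.05. No point is filled, and 27 points on the left and 24 on the right lie above 0.

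Under opposite-strand counting, reads of a member's own transcript fall in the rows of genes that overlap it on the other strand, where such a gene exists. The annotation gave 28 pairs of a member and a gene with an exon opposite it, and 25 of these partner genes had a row, covering 24 members. The partner row averaged more counts than the member row in 15 of the 25 pairs, and 7 partner rows averaged over 200 counts, a level no member reached. The highest was Pdzd9, a gene named for its PDZ domain, with 2030.8 counts per library, opposite Uqcrc2, a core subunit of complex III whose own row averaged 4.30. They share 504 bases of exon. Gm30934 averaged 1087 counts opposite Atp5l (1.65 counts), and 1700018A23Rik averaged 915 opposite Ndufa9 (2.50 counts). The Pdzd9 row was lower in tumors by log2 fold changes of -0.44 ± 0.19 (adjusted p = 0.102) and -0.49 ± 0.19 (adjusted p = 0.0611), which did not pass the test.

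Of the 16 tested partner rows, 1 rose and 2 fell in control tumors and 2 rose and 2 fell in deficient tumors. This is near the share of all 7119 tested rows called, 21.6% in control and 27.5% in deficient mice. Among the called partner rows, that of Gabpa had the most counts. GABPA is the ETS factor also called NRF-2, a known regulator of respiratory chain genes, and its row shares 397 bases of exon with Atp5j. In control mice the Gabpa row had 440, 607, 577, 470 and 374 counts in adjacent tissue and 807, 414, 635, 525 and 658 in tumors (0.27 ± 0.16, adjusted p = 0.234). In deficient mice it had 521, 375, 519, 515 and 632 counts in adjacent tissue and 768, 665, 826, 779 and 728 in tumors. These deficient groups did not overlap (367 ± 55.4 and 551.5 ± 39.0 CPM), and the log2 fold change was 0.59 ± 0.16 (adjusted p = 0.00893, and 0.136 without the filter). Whether these reads belong to Gabpa, Atp5j or another transcript cannot be told apart in these counts.

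The other 3 partner rows were called in both genotypes. Haus1, a spindle gene opposite Atp5a1, rose from 1.86 ± 1.86 to 19.6 ± 13.0 CPM in control mice (log2 fold change 3.39 ± 0.59, adjusted p = 0.000526) and from 2.97 ± 1.04 to 9.32 ± 5.05 CPM in deficient mice (1.61 ± 0.55, adjusted p = 0.0333). Braf, a kinase gene opposite Ndufb2, fell from 32.4 ± 4.48 to 17.6 ± 5.51 CPM (-0.88 ± 0.27, adjusted p = 0.0246) and from 36.1 ± 11.5 to 15 ± 2.56 CPM (-1.26 ± 0.27, adjusted p = 0.00182). Vps13b, a lipid transfer gene opposite Cox6c, fell with log2 fold changes of -1.22 ± 0.42 (adjusted p = 0.0411) and -1.19 ± 0.40 (adjusted p = 0.0300). The control calls of Vps13b and Braf were lost in 17 and 7 of 26 alternatives, and their deficient calls in 7 and 0, while that of Haus1 was lost in 0 of 26 in control and 7 of 25 in deficient mice. The row of Atp5a1, the alpha subunit of the catalytic head, averaged 17.3, 14.6, 24.8 and 18.7 CPM in control adjacent, control tumor, deficient adjacent and deficient tumor libraries, and was not called.

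**Figure D5:**
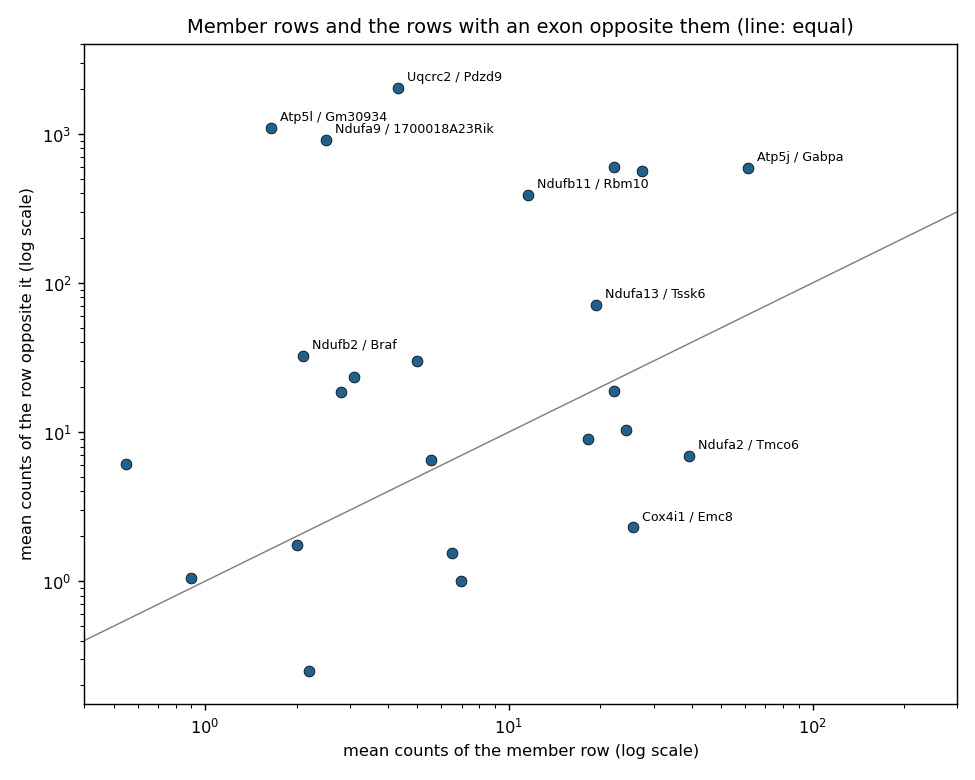
Mean counts per library of member rows (horizontal, log scale) and of the row with an exon opposite each (vertical, log scale) in 24 pairs, over all 20 libraries; the line marks equal means. In 15 of these pairs the point lies above the line, and Pdzd9, opposite Uqcrc2, is highest.

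The rest of the pathway gave few calls between tissues, where edgeR called 21.6% of all tested rows in control and 27.5% in deficient mice. Of 8 rows of other subunits and carriers (among them Cyc1, cytochrome c1) 3 were tested and 0 called by edgeR or DESeq2 in either genotype, and 0 had an unadjusted p under 0.05. Of 51 assembly factors 50 had a row and 14 were tested, and 0 rose and 1 fell in each genotype (with DESeq2, 1 rose and 2 fell in deficient mice). That was Ndufaf8, a complex I assembly factor next to Tepsin, with 5, 13, 27, 19 and 37 counts in control adjacent tissue and 4, 2, 15, 1 and 3 in control tumors (-1.98 ± 0.57, adjusted p = 0.0171), a call that was lost without control adjacent 5 and with only the groups compared. In deficient mice it had 22, 12, 20, 26 and 30 counts against 1, 4, 7, 5 and 7, without overlap (-2.13 ± 0.57, adjusted p = 0.00846).

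Of 12 regulator rows 4 were tested, and 1 rose in each genotype. That is near the share of all tested rows called, 21.6% in control and 27.5% in deficient mice. In control mice the row that rose was that of Esrra, which encodes an orphan nuclear receptor that drives mitochondrial genes. The Esrra row had 37, 21, 44, 39 and 30 counts in adjacent tissue and 84, 98, 46, 57 and 58 in tumors. The groups did not overlap in CPM (0.97 ± 0.26, adjusted p = 0.0111, lost without the filter or with only the groups compared), whereas in deficient mice the log2 fold change was 0.34 ± 0.26 (adjusted p = 0.346). An exon of Trmt112, a methyltransferase cofactor gene, lies opposite Esrra. Whether these reads belong to Esrra, Trmt112 or another transcript cannot be told apart in these counts. In deficient mice the row that rose was that of Gabpa, described above, and between genotypes 0 rows of these 3 lists were called.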

How the data were processed

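Stranded mRNA libraries (per the labels' protocols) of 20 tumor and adjacent samples were analysed. The authors deposited whole-number counts of reads per gene symbol for each library. The mm39 build and the tools HISAT2 2.2.1, HTSeq 2.0.2, Trimmomatic and DESeq2 are named, per the submitters' processing notes, and the strand setting of the counting is not given in the sources used here. Summary lines that name no gene (no feature, ambiguous, low quality, not aligned, not unique) were kept out of library sizes and tests. The no-feature line alone held 78.6% to 85.1% of reads, and genes held 2.51% to 3.45%.

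Rows were kept by edgeR's filterByExpr (minimum count 10, by group) and scaled by TMM factors. edgeR 4.0.16 (R 4.3.3) fitted a robust quasi-likelihood model with 1 mean for each of the 4 groups to all 20 libraries, and p-values were adjusted by Benjamini-Hochberg over all 7119 tested rows, with a threshold of 0.05. Every adjusted p is from this test unless another is named. CPM are counts scaled to the library's summed counts of the tested rows, after TMM. At these counts a row's precision is limited by counting error and by the spread between libraries. Alternatives were DESeq2 1.42.0, RLE factors, no filter, a replicate block, only the groups compared, each library left out, and control tumors 2 and 3 left out. Alternatives for the summed levels were chosen after seeing the data.

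Opposite-strand genes were taken by name from GENCODE M21 (GRCm38), which is not the build of the counts, so no gene coordinates are given. Promoter windows and their coordinates are from RefSeq (GRCm38.p6). Named rows were all members called in any comparison, the 3 members of highest mean CPM in each complex, the 4 complex II members, members at 0 throughout, partner rows called between tissues and other pathway genes called. The values of 1 member are not reported here, and figures by row leave it out. Members and lists were chosen with earlier results of these data known.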

Additional observations from a re-analysis of the deposited data

Results flagged for a closer look

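Of 52 groups of 5 libraries examined for the complex sums and the called rows, 4 had 1 library set far from the other 4 (gap over range above 0.71), and chance gives about 1 in 20 groups. The summed level of complex II was 25.8 CPM in control tumor 3, with the next library of that group at 8.47 CPM. It was 39.7 CPM in deficient adjacent 3, with the next at 21.2 CPM. Ndufa6 reached 23.8 CPM in deficient adjacent 3 (next 17.5 CPM) and 11.9 CPM in deficient tumor 4 (next 6.80 CPM), and in both groups the other libraries lay close together.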

How the results depend on the processing

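At this depth 57 of 90 members were too low to test. Members called in control mice numbered 1, and 2 with DESeq2 (Cox4i1 added), 2 without control tumor 2, 4 without control tumor 3, 6 without control tumors 2 and 3 (of 41 tested), and 0 when only the groups compared were fitted, where 20 members and not Uqcr10 were tested. In deficient mice 6 were called, 2 without the filter, and 3 without deficient tumor 1 or deficient adjacent 1. Leaving out each library gave 1 to 4 calls in control, 3 to 7 in deficient mice, and 0 to 0 for the genotype and interaction comparisons, which had 0 calls under every alternative run. Across 568 alternatives for 22 named comparisons, 497 kept their side of the threshold, 69 lost a call, 2 gained one and 0 changed sign. The ratio for complex I in deficient mice turned to 1.02, and for complex II in control mice to 1.07, when only rows that passed the filter were summed. The labels do not say that equal replicate numbers mark 1 mouse, so pairing was not assumed. Correlations of tumor and adjacent deviations ran from -0.116 to 0.370 in control (3 of 5 matched their own number best) and -0.0161 to 0.228 in deficient mice (1 of 5). The Tsix row, given above, held 0 to 2 counts in both tissues or at least 99 in both for each number. Equal numbers thus matched between the tissues in this row. If they do mark 1 mouse, the main tests left that pairing out, and the replicate block takes it in. With a replicate block, 2 members were called in control mice (Cox4i1 added, adjusted p = 0.0401) and 5 in deficient mice.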
